A study of Mus musculus with 6 samples.

Results

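Mast cells and basophils are blood-derived cells whose granules hold proteases and histamine, and 10 genes of that kind were described here in fetal lung of mice lacking Carm1 and of wild-type mice. Members were all probe sets annotated to 1 of 10 named genes. The genes were the mast cell proteases Cpa3, Cma1, Mcpt4, Tpsb2 and Tpsab1, the basophil protease Mcpt8, the receptor genes Kit, Fcer1a and Ms4a2, and Hdc of histamine synthesis. They were 10 of the 18194 genes that the array measures under a single symbol, and 14 of its 45037 probe sets other than controls measured them, each gene having at least 1. The set was chosen on a readout of these data: Cpa3 and Mcpt8 stood among the genes of smallest p in the contrast of knockout with wild type, so every difference in that contrast is given below as a description, and no support is drawn from it.

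Total RNA of lung was hybridised to 6 arrays, 3 of wild-type mice and 3 of Carm1 knockout mice, the allele and strain being not given in the sources used here. Carm1, spelled CRAM1 in some labels, is a coactivator that methylates arginines of histones and other proteins. The study's design places both genotypes at embryonic day 18.5, but the wild-type sample labels call the tissue neonatal, so age and genotype cannot be told apart from the labels. Nothing in the labels ties an array to a separate fetus or litter, and a p-value below therefore measures the spread between these arrays only.

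Mast cells mature in tissues from bone marrow and fetal liver progenitors under the control of the receptor tyrosine kinase Kit and its ligand, stem cell factor, encoded by Kitl. Their granules store chymases, tryptases and carboxypeptidase A bound to the heparin-bearing proteoglycan serglycin, together with histamine made by histidine decarboxylase. Binding of antigen to IgE held on the high-affinity receptor, whose alpha and beta chains are encoded by Fcer1a and Ms4a2, releases them. Basophils carry the same receptor and store Mcpt8. In lung, mast cells lie mainly along the large airways, vessels and pleura. In RNA of a whole organ, more cells of a type and more RNA per cell cannot be told apart.

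The promoters of Cpa3, Cma1, Mcpt4 and Mcpt8, whose signals separated the genotypes, are shown first. Tpsb2 separated them too, but no promoter window was found for it or for Tpsab1. Cpa3 lies on chromosome 3, and Cma1, Mcpt4 and Mcpt8 lie near each other on chromosome 14. RefSeq promoter windows were found for 8 of the 10 genes, on GRCm38.p6, and the 250 bases before the start were searched on both strands for a GATA motif (AGATAA or TGATAA or AGATAG or TGATAG) and for an E-box (CANNTG), classes of site that are read by the mast cell regulators GATA2 and MITF and by other factors of the same families. Each sequence runs 5′ to 3′ on the gene's strand, with matches in capitals. The windows are chr3:20242182-20242431 for Cpa3, chr14:55944676-55944925 for Cma1, chr14:56062311-56062560 for Mcpt4 and chr14:56085198-56085447 for Mcpt8, all on the minus strand.
Cpa3: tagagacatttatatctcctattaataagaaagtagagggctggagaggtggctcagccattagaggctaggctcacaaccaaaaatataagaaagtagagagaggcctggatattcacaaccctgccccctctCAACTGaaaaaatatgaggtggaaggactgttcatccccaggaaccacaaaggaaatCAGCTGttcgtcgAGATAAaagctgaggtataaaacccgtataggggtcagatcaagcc
Cma1: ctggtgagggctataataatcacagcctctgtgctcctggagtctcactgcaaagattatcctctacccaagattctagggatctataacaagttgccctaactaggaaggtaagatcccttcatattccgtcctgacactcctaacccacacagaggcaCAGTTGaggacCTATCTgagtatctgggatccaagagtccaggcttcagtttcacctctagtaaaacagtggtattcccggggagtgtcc
Mcpt4: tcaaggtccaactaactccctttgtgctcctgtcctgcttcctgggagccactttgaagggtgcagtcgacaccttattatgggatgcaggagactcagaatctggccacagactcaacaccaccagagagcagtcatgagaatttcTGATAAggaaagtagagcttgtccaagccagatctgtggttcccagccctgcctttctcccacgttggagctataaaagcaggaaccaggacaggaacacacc
Mcpt8: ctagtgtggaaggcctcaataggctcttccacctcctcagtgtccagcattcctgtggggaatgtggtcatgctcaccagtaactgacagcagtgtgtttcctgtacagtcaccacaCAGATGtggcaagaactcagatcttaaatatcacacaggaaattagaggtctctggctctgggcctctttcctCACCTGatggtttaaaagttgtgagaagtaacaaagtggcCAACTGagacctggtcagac

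Of the 8 windows, 6 held a GATA match and 5 an E-box. Among all 32851 RefSeq windows of the same length, 26.5% held a GATA match and 66.2% an E-box. The GATA match of Cpa3 began 46 bases before the start, that of Cma1 began 79 bases before it and that of Mcpt4 began 103 bases before it. Mcpt8 had no GATA match and 3 E-boxes. In Cpa3 an E-box lay 7 bases from the GATA match and in Cma1 5 bases from it. A pair with at most 10 bases between, a limit set after these windows were read, was found in 3.61% of all windows. The windows of Kit, Fcer1a, Ms4a2 and Hdc are not shown, since their signals overlapped between the genotypes or lay low. Of these, Ms4a2 held 3 GATA matches, Fcer1a and Hdc held 1 each, and Kit held neither motif. An E-box of the kind preferred by MITF (CATGTG or CACGTG), which the search for CANNTG also finds, was present in Fcer1a alone, against 17.6% of all windows.

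Arrays differed in ways the genotype labels do not explain. Median signals ran from 106.2 to 121.5. Bacterial control RNA was present on wild type replicates 1 and 3 and on no knockout array. By Xist and Y-linked transcripts, 2 arrays were male, namely replicate 3 of wild type and replicate 2 of knockout, and 4 were female. Carm1 itself had signals of 814, 678 and 865 in wild type and 395, 374 and 511 in knockout. The lung markers Sftpc and Scgb1a1 were bright on all 6 arrays, at no less than 45812 and 23864.

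Signals of the mast cell granule proteases were higher on the knockout arrays. The carboxypeptidase gene Cpa3 (probe set 1448730_at) had signals of 221, 221 and 255 on wild type replicates 1 to 3 and of 777, 2292 and 1454 on knockout replicates 1 to 3. The groups did not overlap, and the lowest knockout array lay 3.04-fold above the highest wild-type array. The geometric mean was 5.92-fold higher in knockout (log2 2.57, SE 0.33, 95% interval 1.82 to 3.31). The arithmetic mean was 232 ± 19.9 (SD, n = 3) for wild type and 1508 ± 759 (SD, n = 3) for knockout, so the knockout arrays were spread far more widely than the wild-type arrays.

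Cma1 (1449456_a_at), encoding the chymase of connective tissue mast cells, had signals of 208, 214 and 226 in wild type and 527, 1430.0 and 783 in knockout. All 3 knockout arrays were again above all wild-type arrays, and the difference was 1.96 on the log2 scale (SE 0.31, 95% interval 1.25 to 2.66), or 3.88-fold.

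Mcpt4 (1425967_a_at), a second chymase of connective tissue mast cells, was measured at 5.93, 4.22 and 29.2 in wild type and at 115, 694 and 408 in knockout. Its wild-type signals were so low that its geometric mean over 6 arrays, 53.6, fell under the level required for testing, a signal of 59.7. It therefore has no test or interval here. The lowest knockout array was 3.92-fold above the highest wild-type array. The difference of 5.15 on the log2 scale, though the highest of the 10 genes, rests on very low wild-type signals, and it was 3.32 when signals under 32 were set to 32.

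The tryptase genes, whose products are trypsin-like proteases of mast cell granules, were uneven. Tpsb2 (1422180_a_at) had signals of 132, 133 and 158 in wild type and 287, 1468 and 744 in knockout, with no overlap. Its difference was 2.27 on the log2 scale (SE 0.49, 95% interval 1.17 to 3.37). The other probe set of Tpsb2 (1451802_at) was dim, at 7.53 to 38.4 in wild type and 16.5 to 69.6 in knockout. The groups overlapped there and the probe set was not tested.

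Tpsab1 (1426175_a_at), which RefSeq lists in the reference strain C57BL/6J as a transcribed pseudogene, had signals of 158, 90.9 and 242 in wild type. In knockout it was at 12.9 on replicate 1, below every wild-type array, and at 1591 and 665 on replicates 2 and 3, above every wild-type array. Its difference was 0.66 on the log2 scale with an SE of 1.47 and an interval from −2.68 to 4.0, which spans zero. It was 2.76 without knockout replicate 1, −0.71 without knockout replicate 2 and −0.08 without knockout replicate 3, so its size and direction changed with single knockout arrays.

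Mcpt8 (1449965_at), the protease that marks basophils, was at 34.3, 21.2 and 27.4 in wild type and at 181, 123.3 and 147 in knockout. The groups did not overlap. Mcpt8 entered the tested set only through its knockout signals, since each of its wild-type signals lay below 59.7, and its test is not a check of the difference. The difference was 2.46 on the log2 scale, 2.18 when signals under 32 were set to 32, and 1.61 on the scale of log2 of the signal plus 32. The 3 knockout arrays were closer together for Mcpt8 (151 ± 29.2) than for any mast cell protease.

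**Figure D1:**
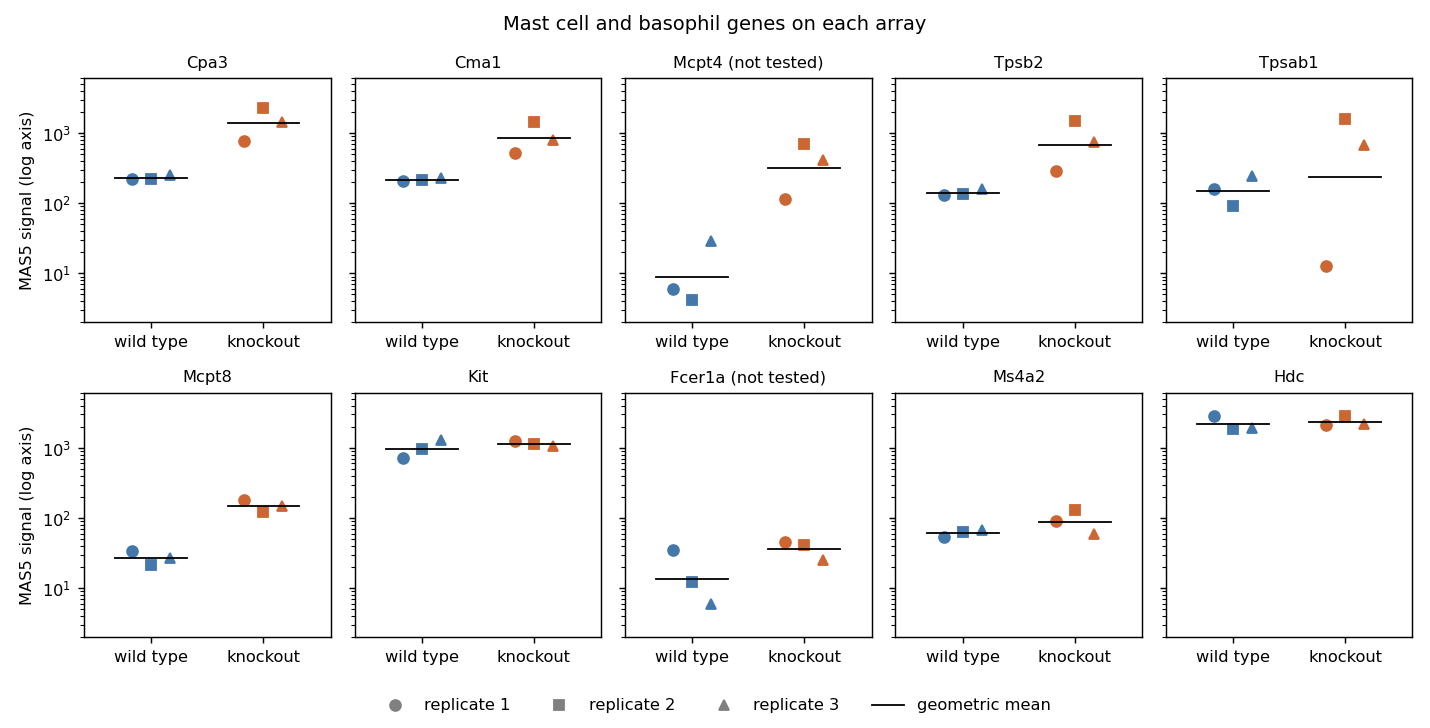
MAS5 signal (log axis) of the 10 genes on each array, at the probe set of highest mean per gene; symbols give the replicate number and lines the geometric mean of 3 arrays. Cpa3, Cma1, Mcpt4, Tpsb2 and Mcpt8 have every knockout array above every wild-type array, Tpsab1 has knockout replicate 1 at 12.9 below wild type, and Kit, Fcer1a, Ms4a2 and Hdc overlap between the genotypes.

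The receptors and the histamine enzyme did not separate the genotypes. Kit had signals of 718, 969 and 1315 in wild type and 1242, 1127 and 1052 in knockout at its brighter probe set (1452514_a_at), so every knockout array lay inside the wild-type range. The difference was 0.23 on the log2 scale (95% interval −0.23 to 0.68), and at the other probe set (1415900_a_at) it was 0.15 (−0.50 to 0.79). Kit is also made by endothelial cells and blood progenitors, so a mast cell share of its signal cannot be read from these arrays.

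Hdc had signals of 2866, 1855 and 1942 in wild type and 2141, 2819 and 2202 in knockout at 1454713_s_at, with a difference of 0.12 (95% interval −0.29 to 0.53). At its second probe set (1451796_s_at) the sign was opposite, at −0.13 (−0.63 to 0.37). At each of them wild type replicate 1 was the highest array. Both intervals leave out a doubling of the whole-lung Hdc signal in knockout, a log2 difference of 1. How much of that signal came from mast cells cannot be read from these arrays, so this says nothing of Hdc in mast cells alone.

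The IgE receptor genes overlapped between the genotypes. Fcer1a (1421775_at) was at 35.0, 12.3 and 5.90 in wild type and 46.3, 41.5 and 25.2 in knockout, below the level for testing and with overlap. Ms4a2 was at 53.2, 62.3 and 67.1 in wild type and 89.4, 132 and 60.0 in knockout at 1443264_at, where the difference was 0.55 (95% interval −0.30 to 1.41). At 1421475_at its signals ranged from 1.45 to 82.2 with no separation and were not tested.

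Counted over the set, 10 of 14 probe sets of 8 of the 10 genes passed the filter on low signal, and Mcpt4 and Fcer1a had none that did. In the limma fit over all 27022 tested probe sets, 0 of the 10 passed a Benjamini-Hochberg adjusted p of 0.05, against 0.0296% of all tested probe sets. At an unadjusted p under 0.05 there were 4 of the 10, those of Cpa3, Cma1, Tpsb2 and Mcpt8, against 13.6% of all. All 3 knockout arrays lay above all 3 wild-type arrays at the same 4 tested probe sets and at Mcpt4, against 10.7% of all tested probe sets. Because this contrast chose the set, nothing is read from these counts. The adjusted p from limma was 0.0796 for Cpa3, 0.0909 for Cma1, 0.135 for Tpsb2 and 0.882 for Tpsab1. With 1 probe set per gene, the median log2 difference was 1.69 over all 10 genes and 1.31 over the 8 tested, against 0.019 over all tested probe sets.

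**Figure D2:**
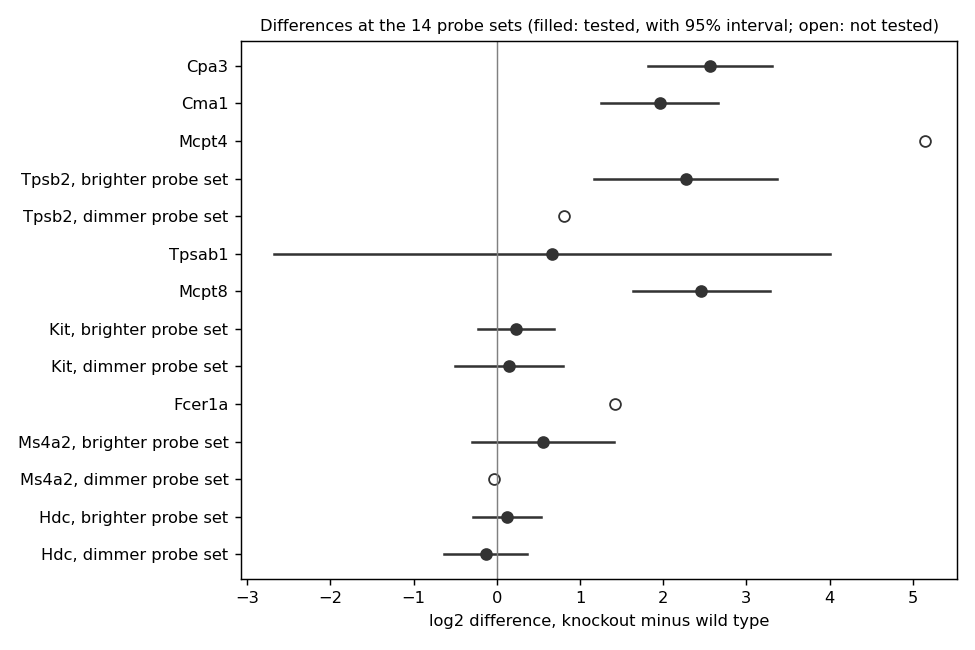
Log2 difference, knockout minus wild type, at all 14 probe sets; filled points were tested and carry a 95% interval from limma, open points lay below the level for testing. The intervals of Cpa3, Cma1 and Tpsb2 lie above 0, as does that of Mcpt8, which was tested only through its knockout signals, that of Tpsab1 runs from −2.68 to 4.0, and those of Kit, Ms4a2 and Hdc span 0.

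The order of the arrays within a genotype was shared by the mast cell proteases. Cpa3, Cma1, Mcpt4, Tpsb2 and Tpsab1 were each highest on knockout replicate 2, next on replicate 3 and lowest of the knockouts on replicate 1, an order seen in 17.1% of all tested probe sets. Within wild type each of the 5 was highest on replicate 3, as were 36.6% of all tested probe sets. Replicate 2 exceeded replicate 1 of the knockouts 2.95-fold for Cpa3, 2.71-fold for Cma1, 5.12-fold for Tpsb2 and 6.06-fold for Mcpt4. Mcpt8 ran the other way: it was highest on knockout replicate 1, and replicate 2 was the lowest knockout array.

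The arrays highest for the mast cell proteases within each genotype, wild type replicate 3 and knockout replicate 2, were the 2 male arrays. Within the 4 female arrays the knockout was 4.81-fold higher for Cpa3, 3.04-fold for Cma1, 3.48-fold for Tpsb2 and 6.06-fold for Mcpt8, and between the 2 male arrays 8.97-fold, 6.33-fold, 9.31-fold and 4.51-fold. Tpsab1 was 6.59-fold higher between the male arrays and at 0.773 of wild type within the female arrays. Among the 4 arrays without bacterial control RNA, where wild type replicate 2 stands alone, the folds were 6.21 for Cpa3, 3.92 for Cma1, 5.10 for Tpsb2 and 7.02 for Mcpt8.

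**Figure D3:**
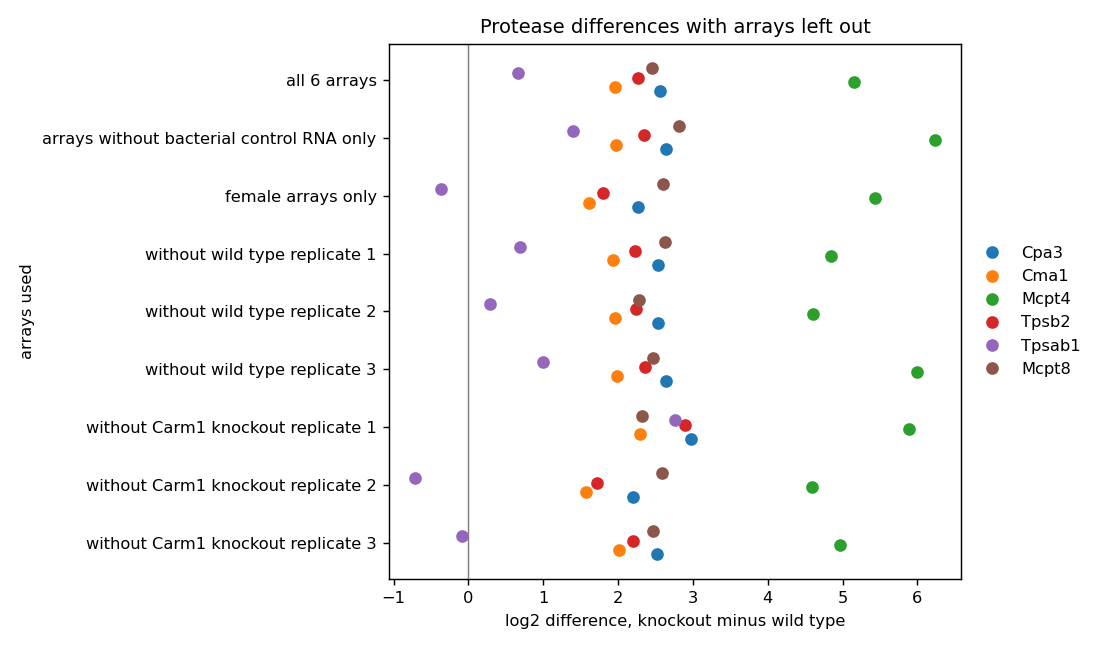
Log2 difference, knockout minus wild type, of the 6 protease genes with all arrays, among arrays without bacterial control RNA, among female arrays, and with each array left out. Cpa3 stays between 2.20 and 2.98 over these settings, whereas Tpsab1 runs from −0.71 to 2.76 and lies below 0 within the female arrays and without knockout replicate 2 or 3.

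By the likeness of its 6 signals to those of Cpa3 (Pearson r of log2 signal), Cma1 stood closest among 12946 other genes with a tested probe set, at r = 0.995. The next 7 were Rbm20 (0.990), Tmed5 (0.989), Mmp23 (0.988), Car13 (0.988), Ccdc173 (0.986), Pmepa1 (0.985) and Prps1l3 (0.983). These 7 differed far less between the genotypes than Cpa3 did, from 0.18 for Tmed5 to 0.95 for Car13 on the log2 scale. Tpsb2 had r = 0.980, Mcpt8 0.880 and Tpsab1 0.460, and Mcpt4, which was not tested, 0.964. These values also carry the genotype difference on which Cpa3 and Mcpt8 were chosen. With the genotype means removed, r with Cpa3 was 0.97 for Cma1, 0.9994 for Tpsb2 and 0.961 for Tpsab1, but −0.61 for Mcpt8. It was 0.885 to 0.959 for the 7 genes named above. Cpa3 varied little in wild type (221, 221 and 255), so the values with genotype means removed rest mostly on the 3 knockout arrays. On those Tpsab1 followed the order of Cpa3 and Mcpt8 did not. Over 6 arrays that share 1 hybridisation platform and scaling such values are a description, and 393 other probe sets also had r above 0.9.

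Markers of other tissues and cells were uneven over the same arrays. Of 4 connective tissue genes 3 were higher in knockout: Dcn, a small proteoglycan, was at 905, 1627 and 727 in wild type and 1604, 3312 and 3626 in knockout, and Col1a1 was at 3110, 4449 and 3276 and 4898, 4630 and 6177. Lum was at 247, 526 and 176 in wild type and 783, 1478 and 3041 in knockout, with no overlap. The log2 differences were 2.42 for Lum (adjusted p 0.130 from limma), 1.39 for Dcn and 0.54 for Col1a1, and −0.26 for Pdgfra, the gene that was lower. The summed signal of that list was 7004 to 9732 in wild type and 9759, 11650 and 15499.9 on knockout replicates 1 to 3. Heart muscle markers were all higher in the mean but highest on knockout replicate 2, where their sum was 24966 against 2480 to 8257 on the other 5 arrays. Nppa, the atrial natriuretic peptide gene, was at 4654 on that array, at 38.8 and 220 on knockout replicates 1 and 3 and at 2.00 to 9.81 in wild type, and Myh6, an atrial and ventricular myosin gene, was at 2352 there.

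Keratin genes of stratified epithelium were brightest on knockout replicate 3, with a summed signal of 1603 against 132 to 339 on the other 5 arrays, and there Krt13 was at 487. Their part in the protease result, and that of the connective tissue and heart markers, was not tested. Without knockout replicate 2 the knockout was 4.58-fold higher for Cpa3, 2.98-fold for Cma1, 3.29-fold for Tpsb2 and 6.04-fold for Mcpt8.

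Markers of other blood cells varied over the arrays in different ways. The 8 neutrophil genes summed to 6656 to 21069 in wild type and to 48710.5 on knockout replicate 1, the array highest for Mcpt8 and lowest of the knockouts for Cpa3, and to 12128.5 and 14932 on replicates 2 and 3. Their members Elane and Mpo, granule enzymes, were at 640 and 865 on knockout replicate 1 and no higher than 149.7 and 431 elsewhere. How far this touches Mcpt8 was not tested. Eosinophil genes, of which Prg2 passed the filter, summed to 73.4 to 278 in wild type and 398, 39.7 and 169 in knockout. Genes of all leukocytes, such as Ptprc, summed to 5317 to 6245 and 4486 to 6318, and macrophage genes to 6011 to 7393 and 6734 to 8276. The macrophage sum was highest on knockout replicate 2. Its complement genes C1qa and C1qb were above wild type on all 3 knockout arrays, as were 10.7% of all tested probe sets. Their differences were 0.50 and 0.53, with adjusted p of 0.198 and 0.251 from limma. The other macrophage genes overlapped between the genotypes: Csf1r and Mrc1 differed by 0.19 and 0.15, and Adgre1 and Cd68 by −0.10 and −0.26. Their part in the protease result was not tested.

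For the remaining lists the sums were 2948 to 3306 in wild type and 3017 to 3382 in knockout for platelets, 8167 to 13820 and 7898 to 10753 for erythroid cells, 295 to 378 and 280 to 465 for lymphocytes, 173 to 330 and 142 to 162 for thymus, and 7903 to 9282 and 5665 to 6711 for endothelium. No gene of these marker lists passed the adjusted threshold of limma. Endothelial markers such as Pecam1 (2970, 2494 and 3768 in wild type and 2274, 2328 and 1942 in knockout) were lower in knockout at 4 of 5 genes with no overlap. Among all 27022 tested probe sets, 2530 had every knockout array below every wild-type array. The exception was Tek, which differed by 0.24 with overlap. No defining marker was listed at 0 on any array, but every deposited signal was above 0, so this says nothing of detection.

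**Figure D4:**
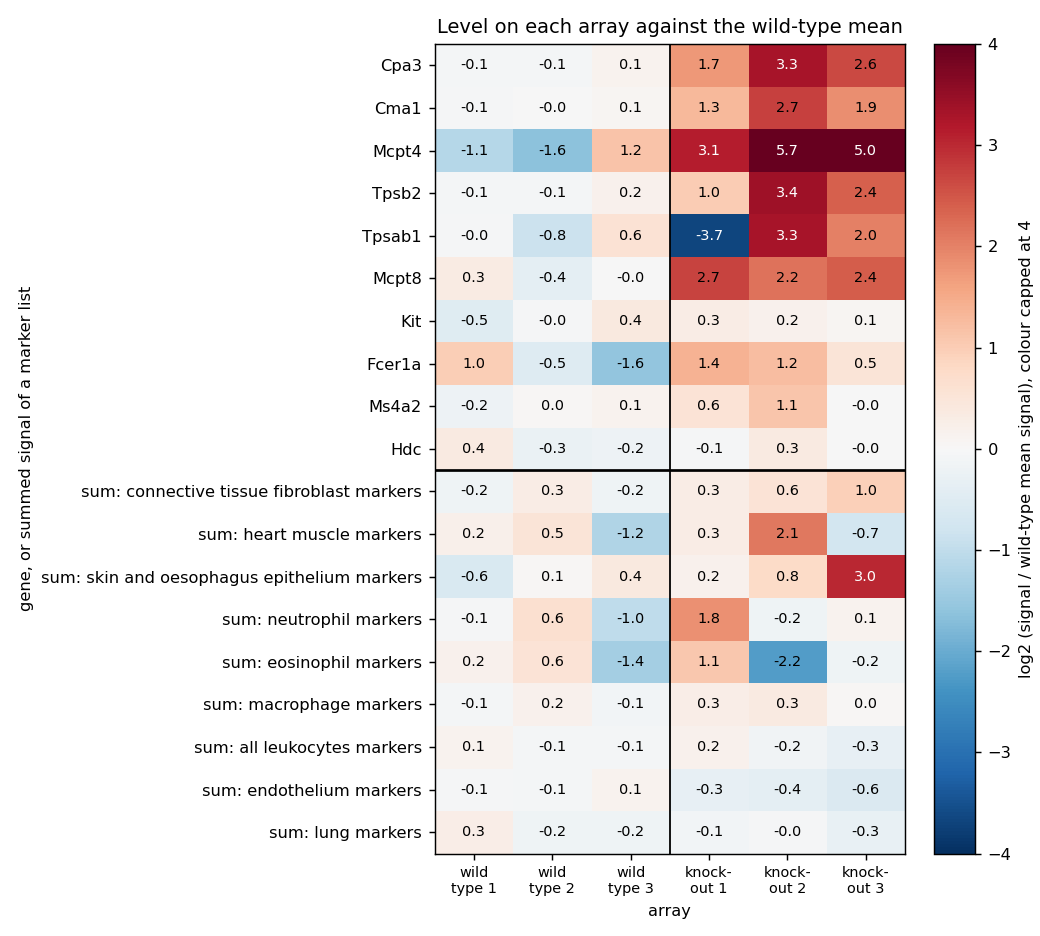
Log2 ratio of each array's signal to the wild-type mean for the 10 genes, and below the line for the summed signals of marker lists; red is higher, blue lower, and colour is capped at 4. The mast cell proteases share the order of knockout replicates 2, 3 and 1, whereas neutrophil markers are highest on knockout replicate 1, heart markers on replicate 2 and stratified epithelium markers on replicate 3.

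The wider mast cell and basophil pathway was described through 7 lists holding 68 genes on the array, of which 47 were tested. Of these 0 passed the adjusted p of limma in either direction and 11 had an unadjusted p under 0.05, against 13.6% of all tested probe sets. Among the 11, Srgn, Hs6st2 and Aoc1 were higher in knockout. Gata2, Rab27b, Ifitm1, Kitl, Il33, Mitf, Syk and Gzmb were lower. Some genes stand in more than 1 list. Among 16 further mast cell genes 12 were higher and 4 lower in knockout, with a median log2 difference of 0.37. Only 8 of the 16 were tested, and of these Gata2 and Rab27b were lower and the rest higher. Of all 27022 tested probe sets, 14233 were higher in knockout. Srgn, encoding serglycin, the proteoglycan that packs granule proteases, was at 3708, 3626 and 3919 in wild type and 4489, 4520 and 4108 in knockout, a difference of 0.22 with no overlap between the groups. Blood cells in general make serglycin, so it is no measure of mast cells alone. Fcer1g, the signalling chain shared by several Fc receptors, was at 748, 997 and 713 and 1111, 1120 and 725.

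Of 10 basophil genes beyond Mcpt8, 4 were higher and 6 lower, with a median of −0.04. Cd200r3, a receptor of basophils and mast cells, was at 2.12, 21.7 and 9.86 in wild type and 18.4, 54.4 and 47.4 in knockout, too dim to be tested. Il3ra, a receptor chain for the basophil growth factor interleukin 3, was at 191, 211 and 155 and 154, 155 and 85.9, and its difference was −0.53. The cytokine genes Il4 and Il13 stayed at or under 33.4 on every array. Only 5 genes of this list were bright enough to be tested, and 1 of them had an unadjusted p under 0.05, against 13.6% of all tested probe sets. That gene was Ifitm1, an interferon-induced membrane protein gene named here after its values were seen, which was lower on all knockout arrays, at 6182 to 11738 in wild type and 3827 to 5285 in knockout, a difference of −0.87.

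Among 11 growth factors and receptors, 6 were higher and 5 lower, with a median of 0.05, but only 7 were tested. Of the tested genes Tslp and Crlf2 were higher, and Kitl, Il3ra, Csf2rb, Il33 and Tgfb1 were lower. The untested Il3, Il4, Il9 and Il9r all counted as higher. Il33 was at 1639, 1458 and 1227 in wild type and 904, 1053 and 592 in knockout, a difference of −0.79 with no overlap. Kitl, the ligand of Kit, was lower in knockout at 8714, 8068 and 9445 against 5891, 7143 and 5288, with no overlap, and its difference was −0.53 with an adjusted p of 0.153 from limma. Il3 was at or under 4.04 on every array, and Csf2rb, the common beta chain of several cytokine receptors, was at 476, 458 and 520 and 548, 397 and 447. Between the genotypes the ligand gene was thus lower where the proteases were higher. Within each genotype it was highest on the array highest for the mast cell proteases, knockout replicate 2 and wild type replicate 3. A link between the ligand and the proteases was not tested.

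The 10 transcription factors included 3 higher and 7 lower, with a median of −0.11. Mitf, which drives mast cell protease genes, was lower on all knockout arrays, at 915, 700 and 894 against 561, 578 and 529, and its difference was −0.58 with an adjusted p of 0.156 from limma. Gata2 was at 521, 490.2 and 454 against 371, 433 and 362, also with no overlap and a difference of −0.33. Both are made by other cells of the lung as well. Gata1 and Tal1 had overlapping signals and were highest on knockout replicate 1.

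Signalling genes downstream of the IgE receptor had a median of 0.08, with 7 higher and 6 lower of 13, of which 11 were tested. The untested Lat2 and Grap2 counted as higher. Syk, the kinase recruited by the receptor, was at 311.5, 266 and 357 against 248, 228 and 132. Fyn differed by −0.06 and Lat by 0.73, with overlap. Of 8 genes of histamine handling 5 were higher, with a median of 0.30, but only 5 of the 8 were tested. The untested Hrh1, Hrh3 and Hrh4 all counted as higher. Among the tested genes Slc18a2 and Aoc1 were higher and Hnmt, Hrh2 and Maob lower. The amine transporter gene Slc18a2, which loads histamine into granules, was at 74.2, 45.4 and 129 against 93.1, 88.9 and 92.0, and the histamine-degrading enzyme genes Hnmt and Aoc1 differed by −0.09 and 1.31. For Aoc1 the groups did not overlap, at 63.5 to 84.0 in wild type and 134 to 248 in knockout, and the adjusted p from limma was 0.149. Hrh1, a histamine receptor gene, was dim on every array.

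In the list of 9 other granule genes 3 were higher and 6 lower, with a median of −0.10. Ctsg, the cathepsin G gene of neutrophils and mast cells, was at 285 on knockout replicate 1 and between 35.3 and 68.7 elsewhere, the array on which the neutrophil genes were also highest. Gzmb, a granzyme of lymphocytes and some mast cells, was at 334, 302 and 337 against 303, 177 and 133. Ndst2, the enzyme that sulphates mast cell heparin, differed by 0.08.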

How the data were processed

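Arrays were Affymetrix Mouse Genome 430 2.0, on which a probe set gives 1 signal per transcript, and 3 wild-type and 3 knockout samples had 1 array each. Each deposited value is an intensity in linear units, and the submitters' processing notes name MAS5, without a version. A mean trimmed by 2% at each end was the same on every array (500.003), so log2 was taken without further scaling or pseudocount. Of 45101 probe sets, 64 controls were left out, and those with a mean log2 signal above the 40th percentile were tested. Detection calls were not used here, and the number of arrays limits the precision. Platform symbols were updated by gene ID through a RefSeq table of GRCm38.p6, and probe sets with several symbols were not named.

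Genotypes were compared by limma 3.58.1 under R 4.3.3, two-sided and with a trend of variance on intensity, and with Benjamini-Hochberg adjustment over 27022 probe sets. The procedure was tested on simulated data. Where a gene had several probe sets, that of highest mean stood for it in counts and medians. Members and lists were chosen with earlier results of these data known. Named genes were all members, the first 4 genes on the array of each pathway list, the 8 most like Cpa3, and the first 2 of a marker list. C1qb, Ifitm1, Scgb1a1, the chromosomal neighbours and genes named to complete the account of a list were added after their values were seen. Alternatives were scaling, low values, variance model, blocks, sex, bacterial RNA and each array left out.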

Additional observations from a re-analysis of the deposited data

How the results depend on the processing

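At their probe sets of highest mean, Cpa3, Cma1, Mcpt4, Tpsb2 and Mcpt8 kept their direction under every alternative run, with Cpa3 between 2.20 and 2.98 on the log2 scale. Each has every knockout array above every wild-type array. Leaving out arrays, or changing low values, filter or variance model, could therefore not turn the sign, and no support is drawn from it. The count of 8 probe sets past the adjusted threshold over the whole array was 0 without an intensity trend, 40 with robust variance, 4 with sex as a term, 2 with bacterial control RNA as a term, 3 among the arrays without it, 0 among female arrays, and 0 to 13 with 1 array left out. The count of 0 members became 1 with median centring (Cpa3, adjusted p = 0.0372), 1 with robust variance (Mcpt8, tested only through its knockout signals) and 0 to 3 with 1 array left out, the 3 being Cpa3, Cma1 and Tpsb2 without knockout replicate 1. Over the alternatives the adjusted p of Cpa3 from limma ran from 0.00932 to 0.488. The median of 1.69 over the members was 1.16 among female arrays, a setting added after the data were seen, and 1.45 to 2.30 with 1 array left out. The 5 genes without overlap became 8 among arrays without bacterial control RNA, also added afterwards. There 1 wild-type array is set against 3, and 31.8% of all tested probe sets have no overlap in this direction. With 1 array left out the genes without overlap were 5 to 7. Fewer arrays make non-overlap easier, and its share over all probe sets was not computed there, so nothing is read from that range. Signs turned for Tpsab1 (−0.37 among female arrays, −0.71 to 2.76 with 1 array left out), for Hdc at its brighter probe set (−0.087 among female arrays, −0.0041 to 0.32) and its dimmer one (0.25 with bacterial RNA as a term and among arrays without it, −0.33 to 0.077), and for the dimmer probe set of Kit (−0.045 to 0.43). Among untested probe sets, Tpsb2 at 1451802_at turned from 0.81 to −0.19 in both bacterial settings, and Ms4a2 at 1421475_at, at −0.029, ran from −1.70 to 1.21 with 1 array left out and was 0.45 with signals under 32 set to 32 and 0.25 with 32 added. The cause was not tested. With the replicate number as a block, 0 probe sets passed over the whole array and 0 members, and the median stayed at 1.69. Arrays of the same number did not deviate together (correlations −0.14, −0.38 and −0.0056), and none correlated best with the array of its own number, so the block is no pairing.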

Other observations

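The genes lying beside the chymases were read as values, a choice made after the members were seen. On chromosome 14, Cma1, Mcpt1, Mcpt2, Mcpt4 and Mcpt8 lie in 1 cluster with Ctsg and the granzymes, 21 genes and pseudogenes in all, of which 14 had a probe set. Mcpt2, a chymase of mucosal mast cells, was dim but higher on the knockout arrays, at 14.01, 10.3 and 54.4 in wild type and 59.4, 135 and 143 in knockout. Mcpt1 was at 1.33 to 17.04 in wild type and 6.34 to 39.3 in knockout. Gzmb, at the far end, was at 302 to 337 in wild type and 133 to 303 in knockout, and the granzyme genes Gzmc to Gzmg and Gzmn stayed under 30 on every array.

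In the tryptase cluster on chromosome 17, Tpsg1, the neighbour of Tpsb2, stayed between 2.67 and 12.3 on every array, and Prss29 was at 180 to 224 in wild type and 147 to 198 in knockout.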
